A study of Mus musculus with 9 samples.

Results

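NRF2, the product of Nfe2l2, is a transcription factor that switches on genes of defence against oxidants. A set of 10 genes was chosen by symbol, with earlier results of these data known. It held Nfe2l2 itself, its inhibitor Keap1, and the targets Nqo1, Hmox1, Gclc, Gclm, Txnrd1, Srxn1, Slc7a11 and G6pdx. Of these, 9 had a probe set among the 19527 probe sets named with 1 gene on the array, each of them a single probe set, and all 9 passed the filter on low values. G6pdx was matched by neither symbol nor gene ID and has no value here.

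The livers came from wild-type C57BL/6 mice, 3 in each of 3 groups, taken on day 15 after an intravenous injection of vector. AAV combination mice received AAV-IFNα together with AAV-L37pA, AAV-IFNα mice received the interferon vector alone, and Mock mice were not injected. The vectors were adeno-associated virus of a liver-tropic serotype, and the EF1α promoter, which is active in most cell types, drove either mouse interferon alpha or L37pA, a peptide that mimics apolipoprotein A-I. The labels give the mice as 6 weeks old, and the study's methods describe young females. There was no group with AAV-L37pA alone and none with a vector carrying no gene, and the vector dose summed to more in the combination than in AAV-IFNα mice, so interferon and vector cannot be told apart against Mock, nor L37pA and the larger amount of vector against AAV-IFNα. Each mouse gave 1 array, and values are log2 signals after the authors' RMA normalization, so a difference of 1 is a factor of 2 in signal. Because whole liver was measured, a change in the number of cells of a type and a change in RNA per cell cannot be told apart.

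In unstressed cells KEAP1 holds NRF2 in the cytoplasm and hands it to the proteasome. Oxidants and electrophiles modify cysteines of KEAP1, NRF2 then builds up, pairs with a small MAF protein and binds antioxidant response elements near its target genes. The abundance and the activity of NRF2 are therefore set largely on the protein, which these arrays did not measure. In liver the pathway is known for glutathione synthesis, the thioredoxin system, the handling of haem and iron and the conjugation and export of xenobiotics.

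All arrays of injected mice carried the interferon response that the vectors were made to give: Isg15 was higher than in Mock livers by a log2 fold change of 3.06 in AAV combination and 3.44 in AAV-IFNα livers, and Usp18 by 2.51 in AAV combination and 2.72 in AAV-IFNα livers. Among the 14715 probe sets tested with limma, 11.2% were called higher and 5.06% lower in AAV-IFNα than in Mock livers at an adjusted p under 0.05. In AAV combination against Mock livers 4.19% were called higher and 1.03% lower, and in AAV combination against AAV-IFNα livers 0.394% were called higher and 2.2% lower. The arrays of the groups compared did not overlap for 36% of probe sets in AAV-IFNα against Mock, 27.9% in AAV combination against Mock and 17.5% in AAV combination against AAV-IFNα. After a further quantile normalization the calls in AAV-IFNα against Mock livers were 54.5% higher, in place of 69.0%. Array medians lay between 5.78 and 5.83, and arrays correlated at 0.971 to 0.988 within a group and at 0.911 to 0.980 between groups.

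In AAV-IFNα livers 6 of the 9 genes were called higher than in Mock (Hmox1, Nqo1, Srxn1, Gclc, Txnrd1 and Keap1) and 0 were called lower (before adjustment, 7 had p under 0.05 as higher and 0 as lower), with limma fold changes of 1.45 to 4.35, beside the 11.2% of all probe sets called higher. The same genes except Keap1 were called higher in AAV combination than in Mock livers, 5 of 9 beside 4.19%, with fold changes of 1.63 to 3.23. The median log2 fold change of the 9 genes was 0.84 in AAV-IFNα against Mock and 0.70 in AAV combination against Mock, where the medians of all probe sets tested were -0.02 and 0.00. AAV-IFNα and Mock arrays did not overlap for 7 of the 9 genes, beside 36% of all probe sets, and AAV combination and Mock arrays for 6 of 9, beside 27.9%. Between AAV combination and AAV-IFNα livers 1 gene was called, Hmox1, which was lower in the combination, beside 2.2% of all probe sets, and it was also the only 1 of the 9 whose arrays did not overlap, beside 17.5%. The Mock arrays are shared by the comparisons with Mock, so those are not independent of each other.

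**Figure D1:**
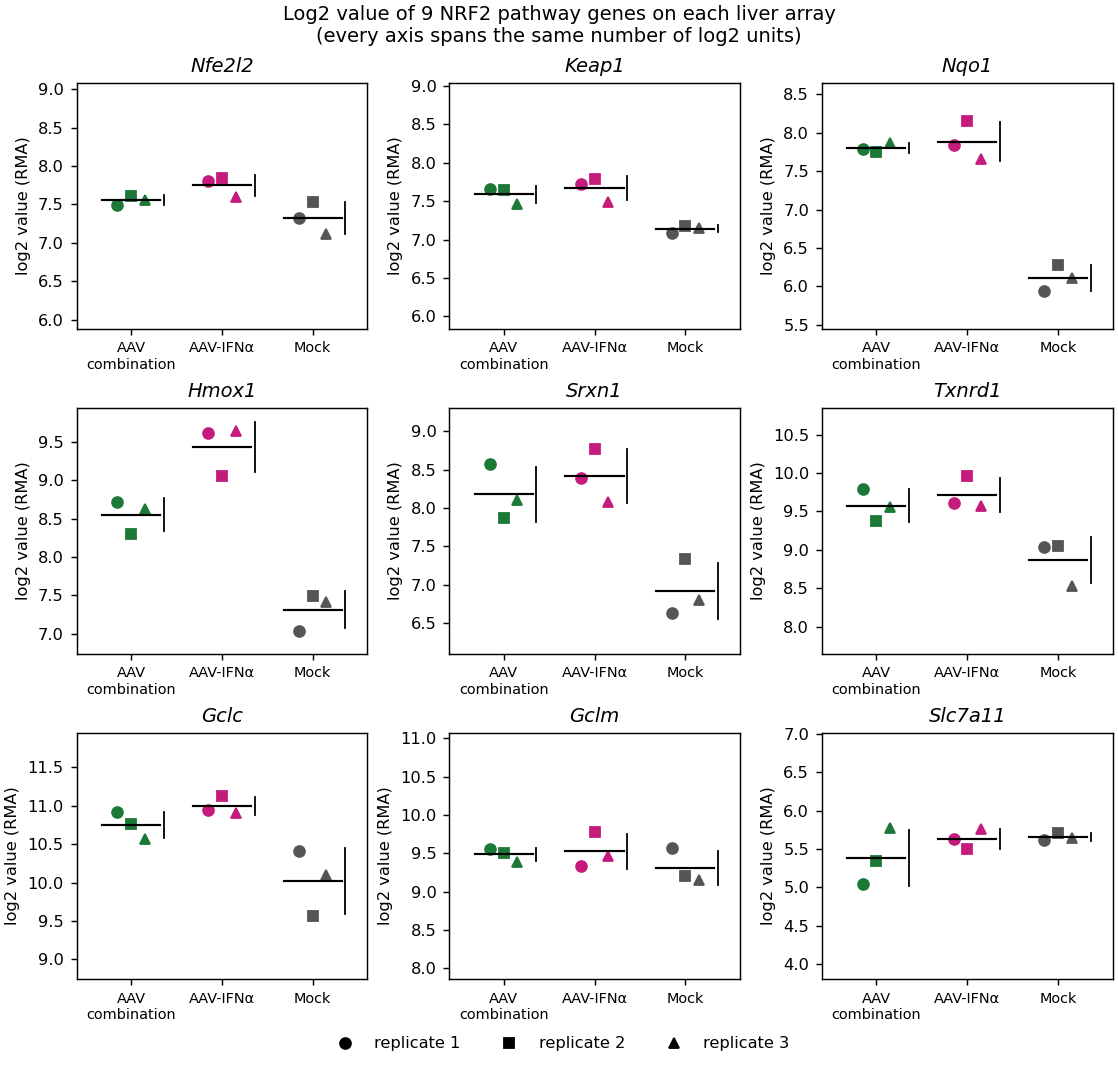
Log2 value (vertical axis, RMA) of 9 genes of the NRF2 pathway on each of the 9 arrays, with the groups AAV combination, AAV-IFNα and Mock on the horizontal axis of each panel. Symbols are arrays by replicate number, long bars are group means and short vertical bars are ±1 SD (n = 3 each), and every panel spans the same number of log2 units. Nqo1, Hmox1, Srxn1, Txnrd1, Gclc and Keap1 lie above all Mock arrays in both injected groups, Hmox1 has a separate level in each group, and Gclm and Slc7a11 overlap in all groups.

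Promoters of 4 of the targets are shown, chosen to hold large, moderate and uncalled differences. They come from RefSeq on build GRCm38.p6, 250 bases upstream of the start, 5′ to 3′ on the strand of the gene, with capitals for matches to the core of the antioxidant response element, searched as TGACNNNGC or TGAGNNNGC on both strands (GCNNNGTCA and GCNNNCTCA in opposite orientation). These letters can overlap the AP-1 sites TGACTCA and TGAGTCA, and a match describes letters, not binding.
Srxn1, chr2:152105274-152105523 (+): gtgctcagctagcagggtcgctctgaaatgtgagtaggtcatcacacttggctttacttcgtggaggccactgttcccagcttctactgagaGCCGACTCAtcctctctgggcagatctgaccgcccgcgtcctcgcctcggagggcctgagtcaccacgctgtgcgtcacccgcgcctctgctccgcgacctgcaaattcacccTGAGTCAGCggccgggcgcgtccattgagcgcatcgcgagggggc
Nqo1, chr8:107403206-107403455 (-): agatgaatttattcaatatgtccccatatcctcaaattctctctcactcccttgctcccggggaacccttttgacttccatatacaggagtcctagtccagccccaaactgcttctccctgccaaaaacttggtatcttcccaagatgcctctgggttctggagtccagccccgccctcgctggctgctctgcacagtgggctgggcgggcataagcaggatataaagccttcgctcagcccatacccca
Txnrd1, middle of 3 starts, chr10:82858956-82859205 (+): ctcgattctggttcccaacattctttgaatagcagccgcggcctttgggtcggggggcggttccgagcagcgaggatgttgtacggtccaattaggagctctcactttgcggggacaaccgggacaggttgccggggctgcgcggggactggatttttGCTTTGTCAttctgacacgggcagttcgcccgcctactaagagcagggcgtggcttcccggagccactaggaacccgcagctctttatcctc
Gclm, chr3:122245307-122245556 (+): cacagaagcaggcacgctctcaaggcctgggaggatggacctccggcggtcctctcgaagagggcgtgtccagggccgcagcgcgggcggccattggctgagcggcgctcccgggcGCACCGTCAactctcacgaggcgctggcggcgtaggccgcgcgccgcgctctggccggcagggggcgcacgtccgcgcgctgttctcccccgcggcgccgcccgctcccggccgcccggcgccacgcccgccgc

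The Srxn1 promoter held 2 matches, GCCGACTCA in opposite orientation from -158 to -150 and TGAGTCAGC from -45 to -37, counted from the start. In the other promoters shown, Txnrd1 had GCTTTGTCA from -92 to -84, Gclm had GCACCGTCA from -134 to -126 and Nqo1 had no match in these bases. Of the 3 Txnrd1 starts only the middle start, which is shown, had a match. Promoters were in the table for 8 of the 10 genes, not for Hmox1 or Gclc, and 6 of those 8 genes (Nfe2l2, Gclm, Txnrd1, Srxn1, Slc7a11 and G6pdx) had a match. Counted by start it was 6 of 10, or 60.0%, beside 23.0% of all 32851 promoters of that length, 10.2% for the motif with C in the fourth place and 14.4% for the motif with G. The genes were chosen for their link to NRF2, so this share is description only. Matches stood before genes that were called, such as Srxn1, and before genes that were not, such as Gclm and Slc7a11.

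Nfe2l2 encodes NRF2. Its log2 values were 7.49, 7.62 and 7.56 in AAV combination livers, 7.80, 7.85 and 7.60 in AAV-IFNα livers and 7.33, 7.53 and 7.11 in Mock livers, given here and throughout in the order of replicates 1 to 3. AAV-IFNα arrays lay above all Mock arrays by a small margin, and combination arrays overlapped both other groups. The log2 fold change was 0.42 in AAV-IFNα against Mock (SE 0.14, 95% interval 0.13 to 0.72, limma adjusted p = 0.0524), which was not called. It was 0.23 in AAV combination against Mock (interval -0.07 to 0.53, adjusted p = 0.338) and -0.19 against AAV-IFNα (interval -0.49 to 0.10, adjusted p = 0.685). The difference between AAV-IFNα and Mock was called without Mock replicate 2 (0.53, adjusted p = 0.0266), and also when AAV-IFNα replicate 3 was omitted (0.50, adjusted p = 0.0445).

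Keap1 encodes the adaptor that delivers NRF2 to the CUL3 ubiquitin ligase. It read 7.66, 7.65 and 7.46 in AAV combination, 7.73, 7.79 and 7.49 in AAV-IFNα and 7.09, 7.18 and 7.15 in Mock livers. Every injected mouse was above every Mock mouse, and the injected groups overlapped. Keap1 rose by 0.53 in AAV-IFNα against Mock (SE 0.13, interval 0.26 to 0.81, adjusted p = 0.0128), a fold of 1.45, while the 0.45 in AAV combination against Mock (interval 0.18 to 0.73, adjusted p = 0.0592) was not called. The call against Mock was lost without AAV-IFNα replicate 1 (0.50, adjusted p = 0.0511) or replicate 2 (0.47, adjusted p = 0.0541). Of the 9 genes Keap1 had the lowest SD within groups, 0.11, below which lay 12.7% of probe sets tested.

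Nqo1 encodes a quinone reductase and is widely used as a reporter of NRF2 activity. Its values were 7.79, 7.74 and 7.87 in AAV combination, 7.84, 8.16 and 7.65 in AAV-IFNα and 5.94, 6.28 and 6.10 in Mock livers. The injected groups overlapped and stood more than 1 log2 unit above the highest Mock array. Nqo1 rose by 1.78 in AAV-IFNα against Mock livers (SE 0.15, interval 1.45 to 2.10, adjusted p = 3.00e-06) and by 1.69 in AAV combination against Mock livers (interval 1.37 to 2.01, adjusted p = 1.21e-05), folds of 3.43 in AAV-IFNα and 3.23 in AAV combination. AAV combination and AAV-IFNα livers differed by -0.08 (interval -0.41 to 0.24, adjusted p = 0.909). That interval allows a fall of up to 0.41 or a rise of up to 0.24 with L37pA and the added vector.

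Srxn1, sulfiredoxin, repairs peroxiredoxins that oxidants have over-oxidized. It had 8.57, 7.86 and 8.11 in AAV combination, 8.39, 8.77 and 8.08 in AAV-IFNα and 6.62, 7.33 and 6.80 in Mock livers. All 6 injected mice exceeded all 3 Mock mice, and the injected groups overlapped. The rise was 1.50 in AAV-IFNα against Mock (SE 0.23, interval 1.00 to 1.99, adjusted p = 0.000591) and 1.26 in AAV combination against Mock (interval 0.77 to 1.75, adjusted p = 0.00581), folds of 2.82 in AAV-IFNα and 2.39 in AAV combination. Srxn1 had the widest SD within groups of the 9 genes, 0.36, above that of 94.9% of probe sets tested, and the difference of -0.24 between AAV combination and AAV-IFNα had an interval of -0.73 to 0.26 (adjusted p = 0.795).

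Thioredoxin reductase 1, from Txnrd1, keeps cytosolic thioredoxin reduced at the cost of NADPH. Livers of the AAV combination had 9.80, 9.37 and 9.55, those of AAV-IFNα 9.61, 9.96 and 9.57 and those of Mock 9.03, 9.05 and 8.53. Mock arrays were again below all others. Txnrd1 rose by 0.84 in AAV-IFNα against Mock (SE 0.18, interval 0.46 to 1.22, adjusted p = 0.00554) and by 0.70 in AAV combination against Mock (interval 0.32 to 1.08, adjusted p = 0.0365), with -0.14 between AAV combination and AAV-IFNα (interval -0.52 to 0.24, adjusted p = 0.862). The call in the combination was lost without Mock replicate 1 or 3 or any combination array, with log2 fold changes of 0.53 to 0.80 and adjusted p of 0.0517 to 0.127.

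Glutamate-cysteine ligase makes the rate-limiting step of glutathione synthesis from a catalytic subunit, Gclc, and a modifier subunit, Gclm. Gclc had 10.92, 10.76 and 10.57 in AAV combination, 10.95, 11.13 and 10.91 in AAV-IFNα and 10.42, 9.56 and 10.10 in Mock livers. The groups with vector overlapped and lay above Mock, whose replicate 2 was the lowest array. Gclc rose by 0.97 in AAV-IFNα against Mock (SE 0.19, interval 0.56 to 1.38, adjusted p = 0.00367) and by 0.73 in AAV combination against Mock (interval 0.31 to 1.14, adjusted p = 0.0445). The call in the combination is at the edge of the threshold: it was lost without any 1 of 8 arrays, all but Mock replicate 1, at log2 fold changes of 0.49 to 0.82 and adjusted p of 0.0563 to 0.118. Between AAV combination and AAV-IFNα the difference was -0.24 (interval -0.65 to 0.17, adjusted p = 0.724).

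Gclm read 9.56, 9.51 and 9.39 in AAV combination, 9.33, 9.77 and 9.47 in AAV-IFNα and 9.57, 9.20 and 9.15 in Mock livers. The 3 groups overlapped, and Mock replicate 1 was as high as the highest combination array. Its log2 fold change was 0.22 in AAV-IFNα against Mock (interval -0.12 to 0.55, adjusted p = 0.349) and 0.18 in AAV combination against Mock (interval -0.15 to 0.51, adjusted p = 0.527). A rise of Gclm as large as that estimated for Gclc in AAV-IFNα livers lies outside its interval.

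Since the subunits act as a pair, the log2 value of Gclc minus that of Gclm was taken within each array, a comparison chosen after the values were seen. The difference depends on the probes and is compared between mice only. It was 1.36, 1.25 and 1.18 in AAV combination, 1.62, 1.36 and 1.44 in AAV-IFNα and 0.85, 0.36 and 0.94 in Mock livers. Each injected mouse had a higher value than each Mock mouse, by 0.75 on average in AAV-IFNα and by 0.55 in AAV combination (exact two-sided permutation test, p = 0.1 each, which is the smallest p that 3 against 3 can give). The difference of AAV combination minus AAV-IFNα was -0.21 (exact permutation test, p = 0.2).

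Slc7a11 is the light chain of the cystine importer xCT, which feeds glutathione synthesis and which hepatocytes express weakly. Its values were 5.05, 5.34 and 5.77 in AAV combination, 5.63, 5.51 and 5.76 in AAV-IFNα and 5.61, 5.71 and 5.64 in Mock livers. The groups overlapped, at a mean level below which only 18.1% of probe sets tested lay. The log2 fold change was -0.02 in AAV-IFNα against Mock (interval -0.38 to 0.34, adjusted p = 0.940), -0.27 in AAV combination against Mock (interval -0.63 to 0.09, adjusted p = 0.357) and -0.25 in AAV combination against AAV-IFNα (interval -0.61 to 0.11, adjusted p = 0.651). A small difference may not be detectable at this level.

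**Figure D2:**
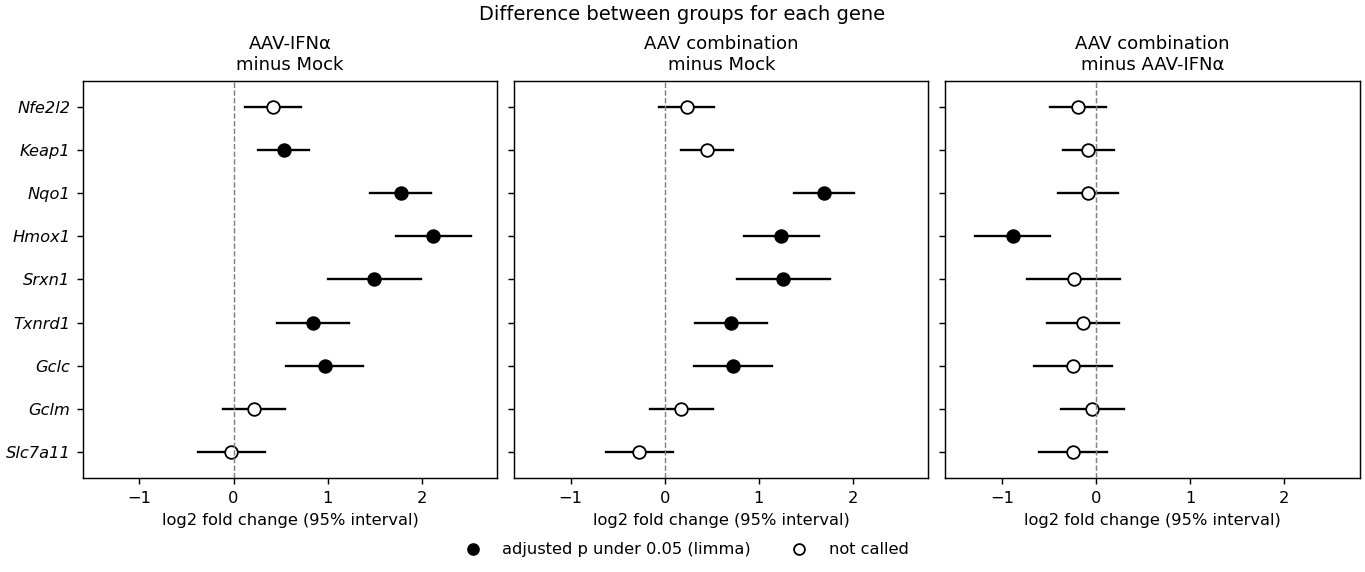
Log2 fold change (horizontal axis, with 95% interval) of the 9 genes in 3 comparisons: AAV-IFNα minus Mock, AAV combination minus Mock and AAV combination minus AAV-IFNα. Filled points are called at a limma adjusted p under 0.05. Called points number 6, 5 and 1, and Hmox1 at -0.89 is the filled point on the right.

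Hmox1, haem oxygenase 1, opens the haem ring to biliverdin, iron and carbon monoxide, and its gene is induced through NRF2 and repressed by BACH1. It had 8.71, 8.31 and 8.63 in AAV combination, 9.61, 9.06 and 9.64 in AAV-IFNα and 7.04, 7.49 and 7.41 in Mock livers. The 3 groups did not overlap, with AAV-IFNα highest, the combination between and Mock lowest. Hmox1 rose by 2.12 in AAV-IFNα against Mock (SE 0.18, interval 1.72 to 2.52, adjusted p = 4.02e-06) and by 1.24 in AAV combination against Mock (interval 0.84 to 1.63, adjusted p = 0.00130), folds of 4.35 in AAV-IFNα and 2.36 in AAV combination. It fell by 0.89 on the log2 scale in AAV combination against AAV-IFNα (interval -1.29 to -0.49, adjusted p = 0.0228), a fold of 0.541. This call was lost without AAV-IFNα replicate 1 or 3 or any combination array, at log2 fold changes of -0.97 to -0.76 and adjusted p of 0.0536 to 0.119.

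Hmox1 is also strongly expressed by macrophages, and markers of resident and recruited leukocytes differed between the groups too. Summed over the 8 Kupffer cell markers, led by Cd5l and Marco, linear signal was 2879 to 3764 in AAV combination, 3806 to 4502 in AAV-IFNα and 1476 to 1728 in Mock livers. Of these markers 5 were called higher in AAV-IFNα and 4 in AAV combination against Mock, and 1 was called lower in AAV combination than in AAV-IFNα. Beside these counts and those of the lists below, 11.2% of all probe sets were called higher in AAV-IFNα against Mock. The share was 4.19% higher in AAV combination against Mock and 2.2% lower in AAV combination against AAV-IFNα. The Kupffer cell sum is carried by its brightest markers, and the list did not move as a whole. In AAV combination against AAV-IFNα the log2 fold change was below 0 for 6 of the 8 markers, down to -0.80. It was above 0 for 2, Clec4f at 0.32 and Vsig4 at 0.22. These 2 mark resident Kupffer cells, but so does Timd4, with means of 6.64 in AAV combination and 7.06 in AAV-IFNα livers. In AAV-IFNα against Mock all 8 were above 0, from 0.05 for Clec4f to 2.86. The 7 monocyte markers, led by Lyz2 and Ly6c2, summed to 687 to 1024 in AAV combination, 922 to 2355 in AAV-IFNα and 363 to 457 in Mock livers, and the 8 NK and T cell markers, led by Gzmb and Nkg7, to 306 to 346 in AAV combination, 571 to 837 in AAV-IFNα and 270 to 330 in Mock livers. In each of these lists 6 markers were tested, 4 were called higher in AAV-IFNα and 1 in AAV combination against Mock, and 2 monocyte and 3 NK and T cell markers were called lower in AAV combination than in AAV-IFNα. Of these, Ccr2, Cd3g and Ncr1 passed the filter through AAV-IFNα alone, and Ly6c2 and Itgam through the injected groups. Of the 3 monocyte and 4 NK and T cell markers above the filter in every group, 1 monocyte and 2 NK and T cell markers were called higher in AAV-IFNα than in Mock. The 2 monocyte markers called lower in the combination were not among them, while 2 of the NK and T cell markers were. Against AAV-IFNα, 5 of the 6 monocyte and all 6 NK and T cell markers tested were below 0 in AAV combination. Lyz2 was the exception, with means of 8.10 in AAV combination and 8.01 in AAV-IFNα livers. In AAV combination against Mock 2 of the 6 monocyte and 3 of the 6 NK and T cell markers were below 0. Nkg7 was among those, with means of 5.80 in AAV combination and 6.17 in Mock livers. The 7 hepatocyte markers, led by Alb and Trf, had no limma call in any comparison (0 at an unadjusted p under 0.05 as well) and summed to 52279 to 53122 in AAV combination, 51919 to 52443 in AAV-IFNα and 50738 to 52480 in Mock livers. The part of these cells in the Hmox1 difference was not tested.

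**Figure D3:**
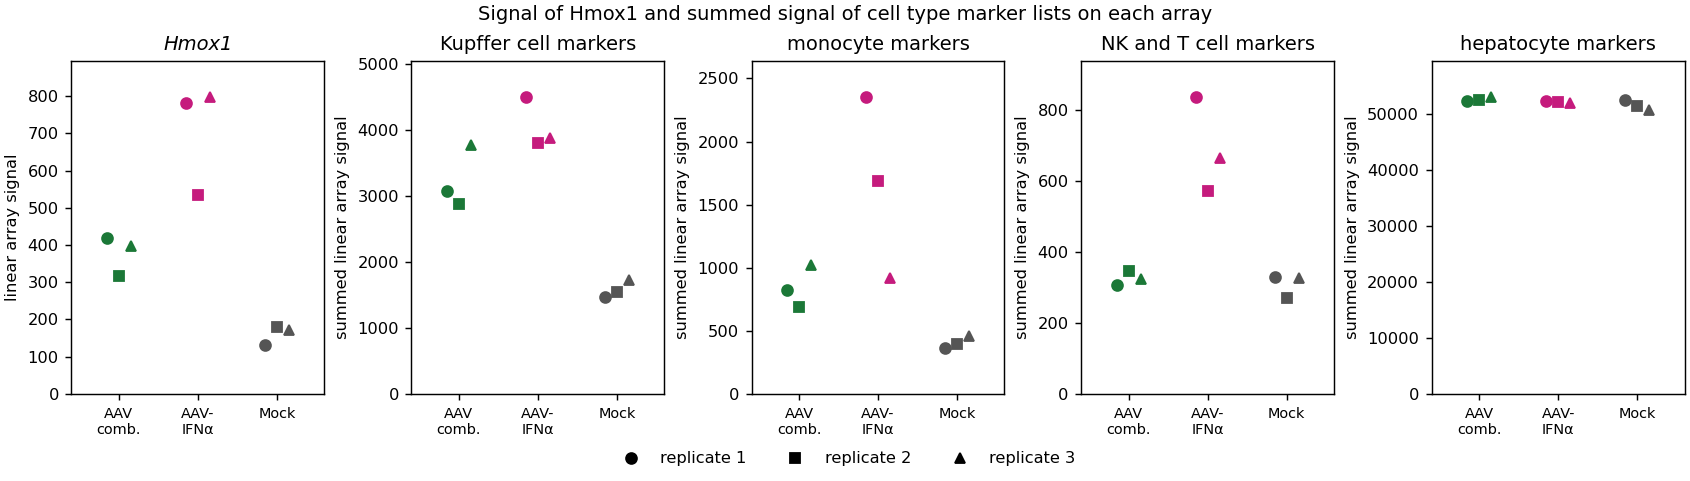
Linear array signal of Hmox1 (left) and summed linear signal of 4 marker lists (vertical axes from 0) on each array, by group on the horizontal axis, with 1 symbol per replicate number. AAV-IFNα arrays are highest for Hmox1, the Kupffer cell list and the NK and T cell list, monocyte sums overlap between the injected groups, and hepatocyte sums lie within 50738 to 53122 on all arrays.

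Among the other lists, neutrophil markers gave 1 call higher in AAV-IFNα against Mock of 4 tested, endothelial markers 3 higher and 1 lower of 6, stellate cell markers 2 lower of 5 and red cell markers 1 lower of 2. Of all probe sets 11.2% were called higher and 5.06% lower in that comparison, and a single call in lists this short is description only. In AAV combination against Mock these 4 lists had no limma call (at an unadjusted p under 0.05, 1 neutrophil and 1 endothelial marker higher, and 1 endothelial, 2 stellate cell and 1 red cell marker lower), beside 4.19% of all probe sets higher and 1.03% lower. Against AAV-IFNα 1 endothelial marker was lower in AAV combination, beside 2.2% of all probe sets. Of these lists, 2 of the 4 neutrophil markers tested were above the filter in every group, and 1 of those was the call. The 8 interferon response genes above the filter in every group were called higher in both injected groups against Mock. Of all probe sets 4.19% were called higher in AAV combination and 11.2% in AAV-IFNα. In AAV combination against AAV-IFNα 0 of the 8 genes were called, at a median log2 fold change of -0.36. Mx1, above the filter in the injected groups only, was called lower, beside 2.2% of all probe sets. With Mx1, 8 of 9 genes were below 0, 6 of them at an unadjusted limma p under 0.05. Summed signal was 7116 to 8497 in AAV combination and 8058 to 10848 in AAV-IFNα livers.

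Between AAV combination and AAV-IFNα livers the point estimate was below 0 for all 9 genes, with a median of -0.19 beside 0.01 for all probe sets tested, although Nqo1 turned positive without AAV-IFNα replicate 2 (0.05) and Gclm turned positive without AAV-IFNα replicate 2 (0.09) or combination replicate 3 (0.01). All 9 stayed below 0 after a further quantile normalization, median centring and array weights. Apart from Hmox1 the 8 intervals all included 0, with lower ends between -0.73 for Srxn1 and -0.36 for Keap1 and upper ends between 0.10 for Nfe2l2 and 0.29 for Gclm. Hmox1 was the gene whose interval lay entirely below 0.

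Which other genes followed Nqo1 was described by the root mean square difference over the 9 arrays, after each gene was set to its own Mock mean, among 13253 named probe sets tested. The nearest were Ifih1, a cytosolic sensor of viral RNA, at 0.093, Shisa5 at 0.11, Apol9a at 0.14, Parp12 at 0.18 and Parp9 at 0.20. Of these, Ifih1 was higher than in Mock livers by 1.65 in AAV combination and by 1.84 in AAV-IFNα livers. Ifih1, Parp9, Parp12 and Apol9a are known as interferon-stimulated genes. Among the other NRF2 genes Srxn1 ranked 43 at 0.36 and Hmox1 ranked 73 at 0.44, Gclc ranked 391, Txnrd1 416, Keap1 1034, Nfe2l2 1951, Gclm 3432 and Slc7a11 9262. The measure joins genes of equal size and order of change and says nothing of shared control.

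A wider view was taken with 6 lists, also chosen with earlier results of these data known. They held 63 further genes of the pathway, of which 58 had a probe set and 57 were tested. In AAV-IFNα against Mock livers 26 were called higher and 4 lower, in AAV combination against Mock 15 higher and 0 lower, and in AAV combination against AAV-IFNα 0 higher and 1 lower. Of all probe sets, 11.2% were called higher and 5.06% lower in AAV-IFNα against Mock, 4.19% higher and 1.03% lower in AAV combination against Mock, and 0.394% higher and 2.2% lower in AAV combination against AAV-IFNα, so the counts lower are near the background. Without Cbr3 and Gpx2, which were not above the filter in every group, 55 genes gave 25 higher and 4 lower in AAV-IFNα and 15 higher in AAV combination against Mock. At an unadjusted p under 0.05, limma gave 3 genes lower in AAV combination than in Mock, and 1 higher and 10 lower in AAV combination than in AAV-IFNα. The median log2 fold change of the 57 was 0.43 in AAV-IFNα against Mock, 0.31 in AAV combination against Mock and -0.11 in AAV combination against AAV-IFNα. Calls were unevenly spread over the lists.

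**Figure D4:**
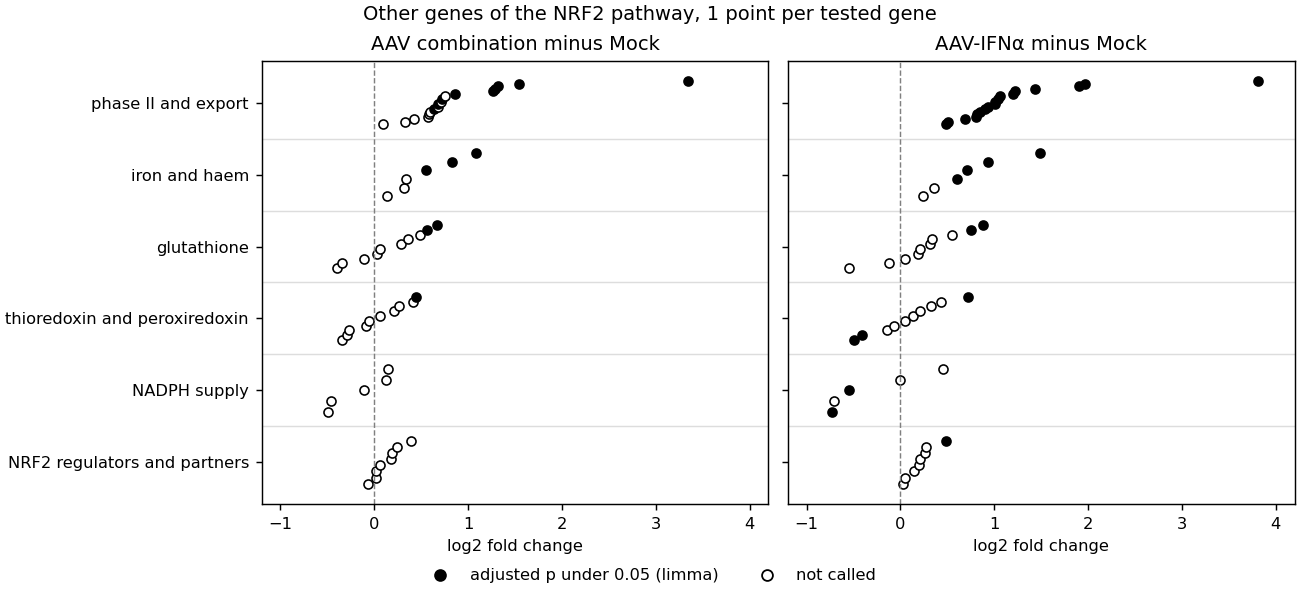
Log2 fold change (horizontal axis) of the 57 other pathway genes tested, 1 point per gene, in AAV combination minus Mock (left) and AAV-IFNα minus Mock (right), by list. Filled points are called at a limma adjusted p under 0.05. All 18 phase II and export genes, among them Cbr3, which passed the filter through AAV-IFNα alone, are filled in AAV-IFNα minus Mock and 9 in AAV combination minus Mock, whereas the NADPH supply list has 2 filled points below 0.

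Phase II and export held the most calls. Of the 17 genes above the filter in every group, that is all but Cbr3, 17 rose in AAV-IFNα against Mock, beside 11.2% of all probe sets, and 9 in AAV combination against Mock, beside 4.19%. Their median log2 fold changes were 1.00 in AAV-IFNα and 0.68 in AAV combination. Gsta2, a glutathione transferase of the alpha class, had 8.95, 9.49 and 9.55 in AAV combination, 9.57, 10.14 and 9.67 in AAV-IFNα and 6.10, 5.59 and 6.26 in Mock livers. Against Mock it rose by 3.34 in AAV combination (SE 0.21, adjusted p = 4.69e-07) and by 3.81 in AAV-IFNα (adjusted p = 7.00e-08), and Gstp1, of the pi class, rose by 1.54 in AAV combination and 1.90 in AAV-IFNα. Gstm3, of the mu class, rose by 1.28 in AAV combination and 1.97 in AAV-IFNα, although its combination call was lost without Mock replicate 1, combination replicate 2 or combination replicate 3 (1.07 to 1.24, adjusted p 0.0501 to 0.0559). Transferases have near-identical copies, so probes of these 3 may also read their paralogues.

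Cbr3, a carbonyl reductase, had 4.88, 4.79 and 4.52 in AAV combination, 5.18, 5.77 and 5.42 in AAV-IFNα and 3.63, 4.29 and 4.15 in Mock livers, and it passed the filter through the AAV-IFNα group alone. Its entry into the test therefore depended on the group where it is high, and its values are given as a description: the log2 differences were 1.43 in AAV-IFNα against Mock, 0.71 in AAV combination against Mock and -0.73 in AAV combination against AAV-IFNα. Akr1b8, an aldo-keto reductase, is named after its values were seen because it was the single pathway gene called between the injected groups. It had 5.61, 6.01 and 6.25 in AAV combination, 7.02, 6.78 and 6.50 in AAV-IFNα and 6.11, 5.74 and 5.74 in Mock livers, so that the combination overlapped Mock and lay below AAV-IFNα. Akr1b8 fell by 0.81 on the log2 scale in AAV combination against AAV-IFNα (SE 0.19, adjusted p = 0.0362) and rose by 0.90 in AAV-IFNα against Mock (adjusted p = 0.00518). The call against AAV-IFNα was lost without AAV-IFNα replicate 1 or 2 or combination replicate 1 or 2 (-0.83 to -0.64, adjusted p 0.113 to 0.198).

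Iron and haem genes were called in 4 of 6 cases in AAV-IFNα and in 3 of 6 in AAV combination against Mock, all higher, beside 4.19% of all probe sets in AAV combination and 11.2% in AAV-IFNα, and in 0 of 6 between the injected groups (limma, 1 lower at an unadjusted p under 0.05). Slc48a1, a haem transporter, had 8.03, 7.85 and 8.28 in AAV combination, 8.37, 8.81 and 8.19 in AAV-IFNα and 7.24, 7.04 and 6.61 in Mock livers. Against Mock it rose by 1.09 in AAV combination (adjusted p = 0.00570) and by 1.49 in AAV-IFNα (SE 0.20, adjusted p = 0.000177). Blvrb, a biliverdin reductase, rose by 0.83 in AAV combination and 0.93 in AAV-IFNα, the call in the combination being lost without Mock replicate 3 (0.72, adjusted p = 0.0557). Blvra, which turns biliverdin into bilirubin, rose by 0.61 in AAV-IFNα (adjusted p = 0.00260), with 0.31 in AAV combination (adjusted p = 0.127). The iron exporter gene Slc40a1 rose by 0.55 in AAV combination (adjusted p = 0.0385) and 0.71 in AAV-IFNα (adjusted p = 0.00377), and the call in the combination was lost without any 1 of 7 arrays (0.47 to 0.63, adjusted p 0.0501 to 0.167), the exceptions being AAV-IFNα replicates 2 and 3. Slc48a1 and Slc40a1 are also macrophage genes, and the Kupffer cell sums given above moved with them in the comparisons with Mock. Their part was not tested.

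In the glutathione list 2 of 10 genes were called, both higher in each injected group, beside 11.2% of all probe sets higher in AAV-IFNα and 4.19% in AAV combination against Mock. Gsr, which regenerates glutathione, had 9.01, 8.92 and 8.96 in AAV combination, 9.11, 9.35 and 9.06 in AAV-IFNα and 8.53, 8.27 and 8.09 in Mock livers. Gsr rose by 0.67 in AAV combination (adjusted p = 0.0163) and by 0.88 in AAV-IFNα against Mock (SE 0.14, adjusted p = 0.000907). Glrx, a glutaredoxin, rose by 0.56 in AAV combination (adjusted p = 0.0237) and by 0.76 in AAV-IFNα (adjusted p = 0.00129). The combination calls were lost without Mock replicate 3, combination replicate 2 or combination replicate 3 (Gsr 0.56 to 0.69, adjusted p 0.0502 to 0.0688), and for Glrx also without Mock replicate 1 (0.49 to 0.60, adjusted p 0.0517 to 0.121). The secreted glutathione peroxidase Gpx3 was not called, at -0.11 in AAV combination and 0.33 in AAV-IFNα against Mock, nor was Chac1, which breaks glutathione down, at -0.39 in AAV combination and -0.54 in AAV-IFNα. Both were called in AAV-IFNα against Mock without Mock replicate 2, Gpx3 at 0.49 (adjusted p = 0.0359) and Chac1 at -0.75 (adjusted p = 0.00975).

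Of the 10 thioredoxin and peroxiredoxin genes tested, 1 was called higher and 2 lower in AAV-IFNα against Mock and 1 higher in AAV combination against Mock, beside 11.2%, 5.06% and 4.19% of all probe sets. Thioredoxin itself was the gene called higher. Txn1 read 11.68, 11.69 and 11.73 in AAV combination, 11.98, 11.98 and 11.94 in AAV-IFNα and 11.24, 11.27 and 11.24 in Mock livers, 3 tight levels without overlap. It rose by 0.45 in AAV combination (SE 0.11, adjusted p = 0.0358) and by 0.72 in AAV-IFNα against Mock (adjusted p = 0.000657), and the -0.27 between AAV combination and AAV-IFNα was not called (adjusted p = 0.333). Its combination call was lost without any 1 of 7 arrays (0.43 to 0.46, adjusted p 0.0505 to 0.134), the exceptions being AAV-IFNα replicates 2 and 3. The mitochondrial reductase Txnrd2 fell by 0.49 in AAV-IFNα against Mock (adjusted p = 0.0252), opposite to Txnrd1, and Prdx4, a peroxiredoxin of the endoplasmic reticulum, fell by 0.41 (adjusted p = 0.0407). In AAV combination against Mock neither was called, Txnrd2 at -0.29 and Prdx4 at -0.35. The Txnrd2 call was lost without Mock replicate 3 or AAV-IFNα replicate 1 or 2 (-0.51 to -0.42, adjusted p 0.0586 to 0.0997), and that of Prdx4 without any array but combination replicates 1 and 2 (-0.44 to -0.35, adjusted p 0.0576 to 0.140). Mitochondrial Txn2 was not called, at 0.42 in AAV combination and 0.32 in AAV-IFNα, but was called in the combination without Mock replicate 2 (0.51, adjusted p = 0.0467).

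NADPH supply, on which all these reductases draw, had 5 genes tested with limma, because Tkt and Nnt, like G6pdx, had no value. In AAV-IFNα against Mock 0 of the 5 were called higher and 2 lower, beside 11.2% and 5.06% of all probe sets. In AAV combination against Mock 0 were called higher and 0 lower, beside 4.19% and 1.03%. At an unadjusted p under 0.05 limma also gave 0 genes higher than in Mock. With 5 genes, 0 called higher is near the share of all probe sets. Pgls, of the pentose phosphate pathway, had 7.22, 7.04 and 6.92 in AAV combination, 6.98, 6.57 and 6.83 in AAV-IFNα and 7.47, 7.38 and 7.71 in Mock livers. Pgls fell by 0.72 in AAV-IFNα against Mock (SE 0.15, adjusted p = 0.00477), with -0.46 in AAV combination (adjusted p = 0.0912). Idh1, cytosolic isocitrate dehydrogenase, had 10.77, 10.90 and 10.74 in AAV combination, 10.26, 10.68 and 10.18 in AAV-IFNα and 10.93, 11.02 and 10.80 in Mock livers. It fell by 0.55 in AAV-IFNα against Mock (adjusted p = 0.0235), a call lost without Mock replicate 1 or 2 or AAV-IFNα replicate 1 or 3 (-0.54 to -0.45, adjusted p 0.0607 to 0.0885), and differed by -0.11 in AAV combination (adjusted p = 0.687). Pgd and Me1, which NRF2 is known to induce, were not called: Pgd had log2 fold changes of 0.15 in AAV combination and 0.46 in AAV-IFNα against Mock, and Me1 had -0.49 in AAV combination and -0.70 in AAV-IFNα. Pgd was called in AAV-IFNα without Mock replicate 2 (0.72, adjusted p = 0.0187).

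Among regulators and partners of NRF2, 1 of 8 was called higher in AAV-IFNα against Mock, a share near the 11.2% of all probe sets, and 0 of 8 in the other comparisons (limma, 1 higher in AAV combination than in Mock and 0 between the injected groups at an unadjusted p under 0.05). Sqstm1, the autophagy adaptor p62 that can draw KEAP1 away from NRF2, had 10.78, 10.60 and 10.59 in AAV combination, 10.71, 10.82 and 10.71 in AAV-IFNα and 10.23, 10.41 and 10.16 in Mock livers. Injected mice were all above Mock mice and overlapped each other. It rose by 0.48 in AAV-IFNα against Mock (SE 0.12, adjusted p = 0.0196), a call lost without Mock replicate 1, Mock replicate 3 or AAV-IFNα replicate 2 (0.43 to 0.46, adjusted p 0.0589 to 0.0682), and the 0.39 in AAV combination was not called (adjusted p = 0.0901). Bach1, a repressor of Hmox1, was not called, at 0.24 in AAV combination and 0.27 in AAV-IFNα against Mock. Nor were Nfe2l1, a relative of NRF2, at 0.02 in AAV combination and 0.20 in AAV-IFNα, and Rbx1, of the ubiquitin ligase, at 0.06 in AAV combination and 0.20 in AAV-IFNα.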

How the data were processed

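Liver RNA of 9 mice was hybridised to 1 Affymetrix array each. The authors deposited log2 values made by RMA background correction, normalization and probe set summary. The array is Clariom S mouse in their methods and Mouse Gene 1.0 ST in the labels, and the probe set identifiers are of the Clariom S style. Groups were taken from the sample titles. Nothing states which mice shared a litter or day, so neither could be modelled. The limma p-values compare group differences with the spread between these mice, drawn toward a spread shared by all probe sets tested.

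Probe sets above 5 in at least 2 samples of 1 condition (14715 of 22142) were fitted with limma 3.58.1 in R 4.3.3 over all 9 arrays, with 6 residual and 6.91 prior degrees of freedom. Two-sided p-values were adjusted by the Benjamini-Hochberg method over all probe sets tested, with calls at an adjusted p under 0.05. Differences of array signal are compressed at low levels. Marker sums add 2 to the power of the log2 values. The method was checked on simulated arrays with independent normal noise, for AAV-IFNα against Mock. It called 81 of 100 changes of 1 log2 unit and 100 of 100 changes of 2 units. Smaller changes were not simulated.

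The genes and lists were chosen with earlier results of these data known. Named were all genes of the set, at most 4 of each pathway list with the smallest p of an F test over the groups, the 2 markers of highest mean in the lists shown, Isg15 and Usp18, and the 5 probe sets nearest to Nqo1. Alternatives were another filter (above 6, or none), prior, normalization, centring or weighting of arrays, a fit without the group not compared, a block for the replicate number, a B-statistic above 0 as the call, and each array left out.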

Additional observations from a re-analysis of the deposited data

How the results depend on the processing

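Over the 17 alternatives with a fold change, 419 values of the 9 genes kept their call status, 26 lost a call, 11 gained one and 0 called values reversed, and Nqo1, Hmox1 and Srxn1 were called against Mock in both injected groups in each. With a B-statistic above 0 as the call, 8 calls of the 9 genes were kept and 4 were lost (Keap1 and Txnrd1 in AAV-IFNα against Mock, Gclc and Txnrd1 in AAV combination against Mock). Slc7a11 gave no value with the filter above 6. The number of the 9 genes called in AAV combination against Mock, 5, became 3 in a fit of only the groups compared, 3 after a further quantile normalization and 3 with a B-statistic above 0, and was 3 to 4 with 1 array left out. In AAV-IFNα against Mock it was 5 to 7 with 1 array left out, and in AAV combination against AAV-IFNα 0 to 1. Pathway genes called numbered 18 with a B-statistic above 0 in AAV-IFNα against Mock, in place of 30. In AAV combination against Mock they numbered 7 to 18 with 1 array left out, in place of 15. In AAV combination against AAV-IFNα, in place of 1, they numbered 2 with array weights, 0 with a B-statistic above 0 and 0 to 2 with 1 array left out. The cause was not tested.

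Nfe2l2 in AAV-IFNα against Mock was also called with the filter above 6 (adjusted p = 0.043), the trended and robust prior (0.042), median centring (0.046) and array weights (0.042). Keap1 in AAV combination against Mock was called with the filter above 6 (0.045), the trended and robust prior (0.047), median centring (0.040) and array weights (0.045). Gclc in AAV combination against Mock was not called with no filter (0.057), only the groups compared (0.076), a further quantile normalization (0.11) or array weights (0.052), nor was Txnrd1 with only the groups compared (0.050) or a further quantile normalization (0.060).

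Mice with the same replicate number did not deviate together (correlations of -0.13 to 0.22 between same-numbered arrays, with 3, 3 and 2 of 6 arrays closest to their own number in the comparisons of AAV-IFNα and of AAV combination with Mock and of AAV combination with AAV-IFNα), so the numbers were not read as pairs. With the replicate number as a block 7, 5 and 1 of the 9 genes, 30, 17 and 2 pathway genes and 2389, 832 and 430 probe sets were called in those comparisons, and Nfe2l2 in AAV-IFNα against Mock had an adjusted p of 0.049.

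Of all probe sets, 2400 were called in AAV-IFNα against Mock, 1507 without AAV-IFNα replicate 1, 1528 without AAV-IFNα replicate 2 and 888 with a B-statistic above 0. The 767 in AAV combination against Mock became 1176 with array weights, 353 with a B-statistic above 0, and with 1 array left out 503 (Mock replicate 1), 454 (Mock replicate 3), 423 (combination replicate 2) and 323 (combination replicate 3). The 382 in AAV combination against AAV-IFNα became 155 (AAV-IFNα replicate 1 left out), 245 (AAV-IFNα replicate 2), 152 (combination replicate 1), 159 (combination replicate 2) and 240 (combination replicate 3).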
